A study of Mus musculus with 6 samples.

Results

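The genes described here are 10 genes of the urothelium, the epithelium that lines the renal pelvis, ureter and bladder: the uroplakins Upk1a, Upk1b, Upk2, Upk3a and Upk3b, the keratins Krt5, Krt15 and Krt19, and Fcgbp and Psca. They were taken by name from the 54532 genes of the deposited tables. They had been chosen by their measured fold changes and values per library in these same samples, because several were far lower in Trpm2-/- kidneys and that difference rested on 1 WT kidney. Their own comparison between genotypes is therefore a description, and no test of it is given. RNA was sequenced from kidneys of 3 WT and 3 Trpm2-/- (labelled TRPM2-KO) C57BL/6J mice, 1 library per mouse, to compare the genotypes during acute kidney injury. Every mouse, WT included, had received a cisplatin dose of 18 mg/kg, with kidneys taken at 72 h, and there was no untreated group. The labels give an age of 6 to 8 weeks for all mice, the methods an older one, and the methods describe male mice. The Trpm2-/- mice carry a germline deletion of exons that encode transmembrane segments, so that a shortened protein is made which forms no channel. Libraries are numbered 1, 2 and 3 for WT and 1, 2 and 4 for Trpm2-/-. They held 14053307 to 17150089 gene counts. At this depth the limit that a count of 0 allows, 3 counts per library, was 0.184 to 0.205 CPM (counts scaled to a common library size after TMM normalisation), which covers counting error only. Trpm2 itself had 5, 5 and 27 counts in WT and 10, 16 and 20 in Trpm2-/- libraries, and since a count over the whole gene also covers the exons that remain, it did not check the labels. Which part of the kidney was homogenised is not given in the sources used here.

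Uroplakins are membrane proteins that cover the face of the superficial urothelial cells, called umbrella cells, with rigid plaques, and these plaques make the lining tight against urine. Upk1a and Upk1b are tetraspanins, proteins that cross the membrane several times. In the plaque Upk1a pairs with Upk2, and Upk1b pairs with Upk3a, or with Upk3b, a relative of Upk3a that is also known from mesothelium, the lining of the abdominal cavity. Krt5 and Krt15 are keratins of the basal cells of layered epithelia, Krt19 is a keratin of many simple and ductal epithelia including the collecting duct, Fcgbp is a secreted, mucin-like protein of mucosal surfaces, and Psca is a small lipid-anchored surface protein of the bladder and other epithelia.

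The members lie on chromosomes 5, 7, 9, 11, 15 and 16, at the positions of GRCm38. Krt15 (chromosome 11, 100131758 to 100135928) and Krt19 (chromosome 11, 100140810 to 100148665) are neighbours with 4881 bases between them, both on the minus strand. Krt5 overlaps a short gene on the other strand, Gm44323, and 7.77% of its 75-base transcript windows occur in transcripts of Gm44323 or of other keratin-like genes. For Fcgbp this share was 2.99%, all in 9530053A07Rik, and for the other 8 members it was 0. RefSeq promoter sequences (GRCm38.p6) matched 5 members, Upk1a, Upk3a, Upk3b, Fcgbp and Krt5. Shown are the 250 bases before the start for Upk3a and Fcgbp, whose WT and Trpm2-/- levels did not overlap, and for Upk3b and Krt5, whose levels did. Capitals mark matches on either strand to GATAA, the core read by GATA factors, to CACCC, bound by KLF factors, or to AGGTCA, the half-site of nuclear receptors such as PPARG, all of them families with members that act in urothelium.
Upk3a, chr15:85016891-85017140, plus strand: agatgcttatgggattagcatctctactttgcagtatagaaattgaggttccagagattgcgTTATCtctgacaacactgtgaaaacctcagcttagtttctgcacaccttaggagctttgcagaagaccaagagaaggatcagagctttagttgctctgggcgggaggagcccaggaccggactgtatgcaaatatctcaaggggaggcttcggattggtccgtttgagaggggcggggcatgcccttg
Upk3b, chr5:136038246-136038495, plus strand: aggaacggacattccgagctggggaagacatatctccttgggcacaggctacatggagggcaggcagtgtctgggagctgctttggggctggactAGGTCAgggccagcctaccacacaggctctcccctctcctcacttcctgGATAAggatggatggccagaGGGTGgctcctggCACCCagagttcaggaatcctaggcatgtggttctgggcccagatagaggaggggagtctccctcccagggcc
Fcgbp, chr7:28070986-28071235, plus strand: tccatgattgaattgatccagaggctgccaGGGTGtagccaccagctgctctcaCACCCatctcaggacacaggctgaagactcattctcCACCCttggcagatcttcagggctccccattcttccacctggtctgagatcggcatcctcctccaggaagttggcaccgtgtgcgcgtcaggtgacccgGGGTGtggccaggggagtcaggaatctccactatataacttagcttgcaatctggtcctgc
Krt5, chr15:101712906-101713155, minus strand: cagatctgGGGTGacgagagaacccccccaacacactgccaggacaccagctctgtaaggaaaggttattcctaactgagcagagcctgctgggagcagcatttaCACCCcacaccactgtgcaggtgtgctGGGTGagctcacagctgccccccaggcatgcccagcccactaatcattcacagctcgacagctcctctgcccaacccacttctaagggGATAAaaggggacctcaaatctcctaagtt

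GATAA was present in 3 of the 5 member promoters (Upk3a, Upk3b and Krt5), against 22.6% of the 32851 promoters in the table. CACCC was present in 4 of 5 (all but Upk3a) against 52% of all promoters, and AGGTCA in 1, that of Upk3b, against 14%. TGANTCA (the AP-1 element), TGTTTAC (read by FOXA factors) and AACNGGTT (read by grainyhead factors), where N is any base, were found in 0 of 5, against 6.75%, 3.17% and 1.79% of all promoters. A match is only a match of letters, and GATAA and CACCC were both found in the Krt5 promoter too.

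The 5 uroplakins were scarce in these kidneys, and most of what was counted came from WT replicate 1. Their summed level was 49.1 CPM in that kidney, against 4.24 and 11.4 CPM in WT replicates 2 and 3 and 1.29, 2.25 and 4.30 CPM in Trpm2-/- replicates 1, 2 and 4. In this sum WT replicate 2 and Trpm2-/- replicate 4 were close, with 66 and 69 counts, and their order depended on the scale. As summed FPKM, which corrects for gene length, WT replicate 2 had 2.43 and Trpm2-/- replicate 4 had 1.85, and the genotypes did not overlap. Fewer urothelial cells in a sample and less RNA per cell cannot be told apart in bulk RNA.

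Upk3a (chromosome 15, 85017141 to 85022547), the partner of Upk1b in the plaque, had 13.5, 0.771 and 3.31 CPM in WT replicates 1, 2 and 3. It had 0, 0.273 and 0.125 CPM in Trpm2-/- replicates 1, 2 and 4, which is 6 counts in all, against 285 in WT. All 3 WT kidneys were above all 3 Trpm2-/- kidneys, and WT replicate 1 held 76.8% of the WT counts. The log2 fold change, Trpm2-/- against WT, was -5.43 (standard error 1.16), and -3.92 (standard error 0.953) without WT replicate 1. In pooled counts, WT replicates 2 and 3 alone were still 16.2-fold above the Trpm2-/- libraries (95% counting interval 7.08 to 45.8).

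Upk1b (chromosome 16, 38773184 to 38800328), the tetraspanin that pairs with Upk3a, had 214, 6 and 25 counts in WT and 3, 0 and 2 in Trpm2-/- libraries. As CPM these are 13.2, 0.386 and 1.53 against 0.184, 0 and 0.125. Its WT replicate 1 value was 8.61 times that of the next highest kidney. Upk2 (chromosome 9, 44452715 to 44454976), the partner of Upk1a, had 56, 1 and 17 counts in WT and 1, 0 and 0 in Trpm2-/- libraries. WT replicate 2 and Trpm2-/- replicate 1, with 1 count each, could not be told apart. The single Trpm2-/- count puts the pooled ratio of WT to Trpm2-/- at 72.4, with a 95% counting interval of 12.6 to 2898. Neither gene passed the filter on low counts, and without a filter the log2 fold changes were -5.49 for Upk1b and -5.73 for Upk2. Leaving out WT replicate 1 moved them to -3.11 and -4.28.

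Upk1a and Upk3b differed less between the genotypes than their partners. Upk1a (chromosome 7, 30603092 to 30612847) had 10.7, 2.31 and 2.45 CPM in WT and 0.673, 1.30 and 1.81 CPM in Trpm2-/- kidneys. The genotypes did not overlap, but with WT replicate 1 left out the log2 fold change went from -2.03 (standard error 0.647) to -0.93 (standard error 0.487). Upk3b (chromosome 5, 136038496 to 136046487) had 8.20, 0.707 and 3.07 CPM in WT and 0.367, 0.683 and 2.24 CPM in Trpm2-/- kidneys. Here the genotypes overlapped, with Trpm2-/- replicate 4 above WT replicate 2. Its log2 fold change was -1.85 (standard error 0.839), and -0.79 (standard error 0.817) without WT replicate 1.

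**Figure D1:**
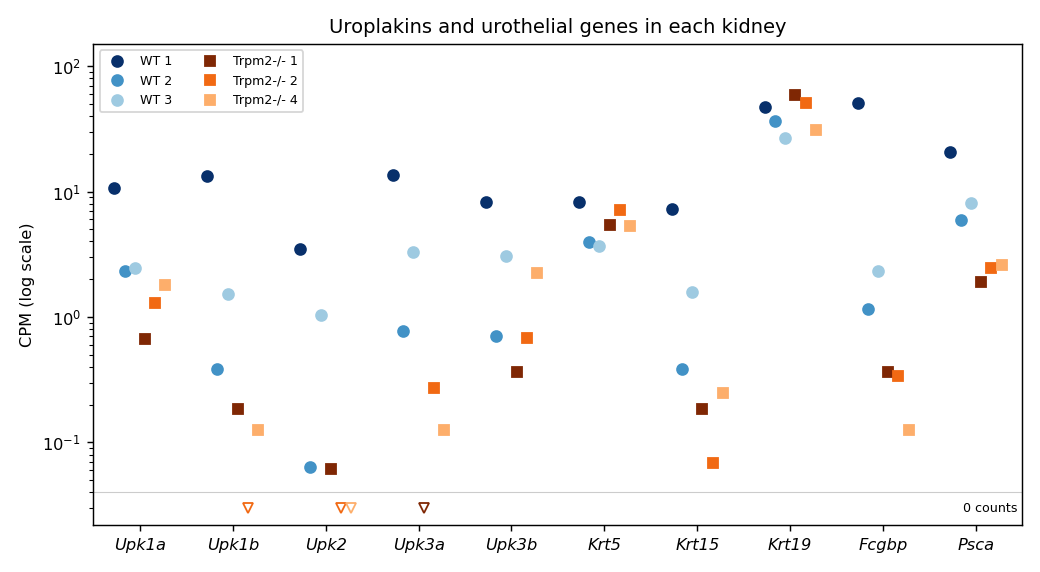
CPM of the 10 genes (x axis) in each of the 6 kidneys on a log scale (y axis), with WT as circles, Trpm2-/- as squares and libraries with 0 counts as open triangles under the line. WT replicate 1 is the highest kidney for every gene but Krt19, and Krt5 and Krt19 show no separation of the genotypes.

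The makeup of the uroplakin signal also varied between kidneys. On the FPKM scale Upk3a took the largest share of the summed uroplakin level in WT replicates 1 and 3, at 38.9% and 41.4%. Upk1a took 23.8% and 23.6% there. In WT replicate 2, Upk1a led with 58.6% and Upk3a had 25.4%. In the Trpm2-/- kidneys Upk1a made up 65.6%, 67.3% and 61.1%, while Upk3a made up 0%, 18.4% and 5.48%. Upk3b had its largest share, 30.5%, in Trpm2-/- replicate 4. WT replicate 2, the WT kidney with the least uroplakin RNA, thus had an Upk1a share nearer to the Trpm2-/- kidneys than to the other WT kidneys. These shares rest on few reads outside WT replicate 1, with 66 counts over the 5 genes in WT replicate 2 and 21, 33 and 69 in the Trpm2-/- libraries.

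**Figure D2:**
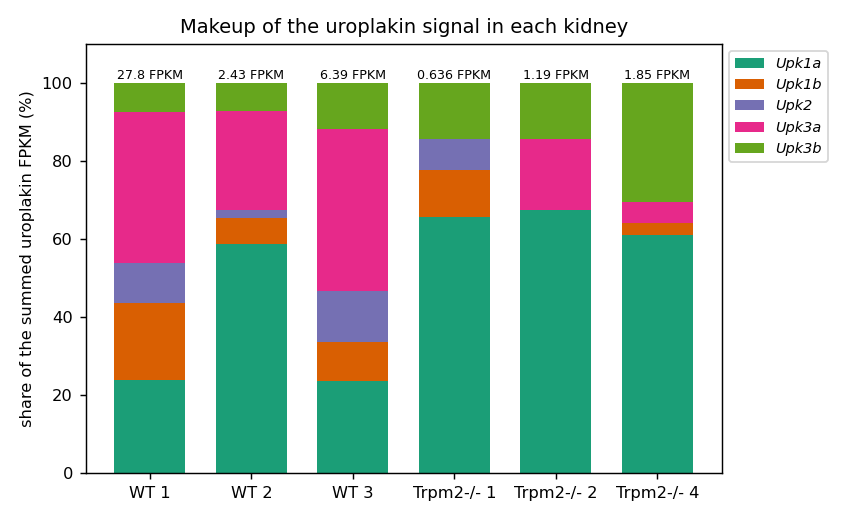
Share of each uroplakin in the summed FPKM of the 5 uroplakins (y axis, percent) in each kidney (x axis), with the sum printed above each bar. The Upk1a share is 58.6% or more in WT replicate 2 and the Trpm2-/- kidneys, and 23.8% or less in WT replicates 1 and 3.

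Fcgbp (chromosome 7, 28071236 to 28120862) was the member that depended most on 1 kidney. It had 50.5 CPM in WT replicate 1 and 1.16 and 2.33 CPM in WT replicates 2 and 3. The Trpm2-/- kidneys had 0.367, 0.341 and 0.125 CPM. WT replicate 1 thus held 93.6% of the WT counts and stood 21.7-fold above the next highest kidney. The log2 fold change was -5.98 (standard error 1.5) with all mice and -2.63 (standard error 0.633) without WT replicate 1. The other 2 WT kidneys were 6.36-fold above the Trpm2-/- libraries in pooled counts (95% counting interval 3.44 to 12.7), and the genotypes did not overlap.

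Psca (chromosome 15, 74714839 to 74717069) was the member whose difference depended least on that kidney among those that were lower. It had 20.5, 5.91 and 8.04 CPM in WT and 1.90, 2.46 and 2.62 CPM in Trpm2-/- kidneys. The means were 11.5 ± 7.90 and 2.32 ± 0.377 CPM (SD, n = 3). The lowest WT kidney was above the highest Trpm2-/- kidney, and the log2 fold change went from -2.30 (standard error 0.456) to -1.59 (standard error 0.324) without WT replicate 1.

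The 3 keratins did not move as a group. Krt15 (chromosome 11) followed the uroplakins, with 7.28, 0.386 and 1.60 CPM in WT and 0.184, 0.0683 and 0.249 CPM in Trpm2-/- kidneys. That is 150 against 8 counts, with no overlap, and the gene did not pass the filter. Without a filter its log2 fold change was -4.14, and -2.51 without WT replicate 1. Krt5 (chromosome 15, 101707070 to 101712898) had 8.26, 3.98 and 3.68 CPM in WT and 5.45, 7.10 and 5.29 CPM in Trpm2-/- kidneys. Only WT replicate 1 was above the Trpm2-/- kidneys, and the other 2 WT kidneys were below all 3 of them. Its log2 fold change was 0.16 (standard error 0.343), and 0.63 (standard error 0.300) without WT replicate 1. Krt19, whose gene adjoins Krt15, had 47.6, 36.5 and 26.9 CPM in WT and 58.8, 50.6 and 31.2 CPM in Trpm2-/- kidneys. The genotypes overlapped, and the log2 fold change was 0.34 (standard error 0.257).

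Of the 10 genes, 7 passed the filter on low counts. The log2 fold change was below -1 for 5 of these 7 and for 4.6% of the 15816 genes tested. All 3 WT kidneys were above all 3 Trpm2-/- kidneys for 4 of the 7 (Upk1a, Upk3a, Fcgbp and Psca), against 16.8% of genes tested, and also for Upk1b and Krt15, which were not tested. These counts only restate how the genes were chosen. The median log2 fold change of the 7 was -2.03, against 0.02 over all genes tested, and without WT replicate 1 it was -0.93.

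**Figure D3:**
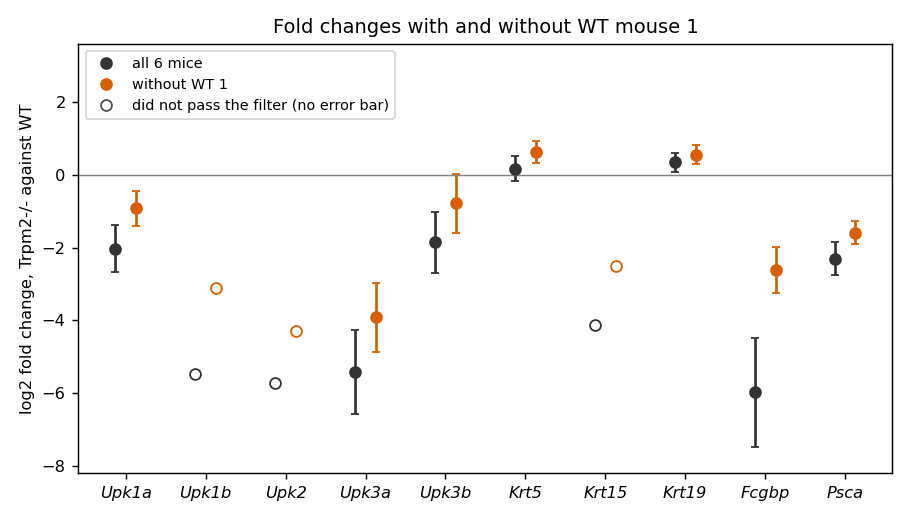
Log2 fold change of each gene (x axis), Trpm2-/- against WT (y axis), with all 6 mice in dark grey and without WT replicate 1 in orange. Bars are standard errors, and open circles, drawn with none, are the 3 genes that did not pass the filter, fitted without it. Each of the 8 genes below 0 moves toward 0 without WT replicate 1, while Krt5 and Krt19 move further above it.

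WT replicate 1 was not high across the transcriptome. It was the highest of the 6 kidneys for 8.34% of genes tested, the smallest such share of any library (the others had 15.3% to 23.1%). Its level was at least 4-fold above the next highest kidney for 11 genes, which is 0.0695% of those tested. Of these 11, 3 were members (Fcgbp, Upk1a and Upk3a), and Upk1b and Krt15, which were not tested, were also past this ratio. The place of the members here only restates how they were chosen, since the choice used their dependence on 1 WT kidney. In Trpm2-/- replicate 4, 16 genes stood this far above the other kidneys, and in the remaining 4 libraries 0 or 1 gene did.

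**Figure D4:**
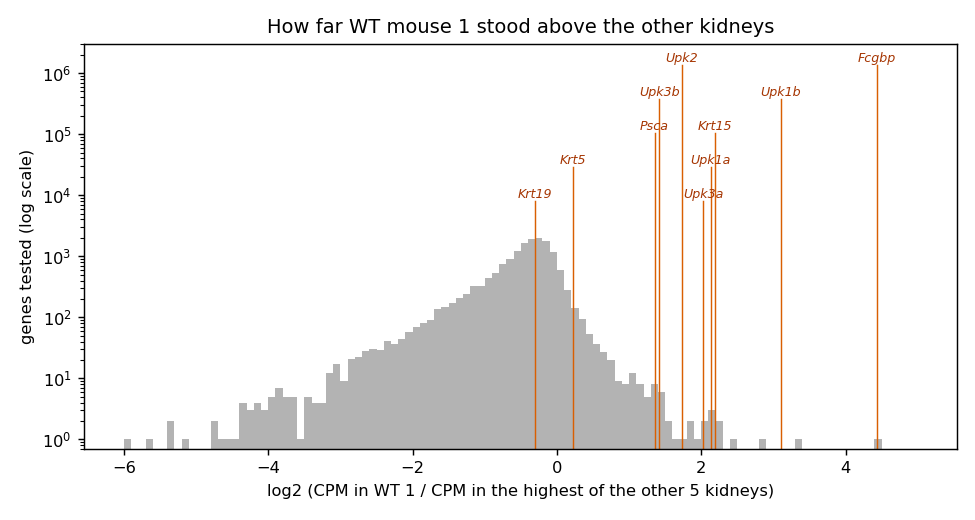
Histogram of the log2 ratio of WT replicate 1 to the highest of the other 5 kidneys (x axis) over the genes tested (y axis, log scale), with the 10 genes marked, of which Upk1b, Upk2 and Krt15 are not in the histogram. Fcgbp is the gene farthest to the right, at a ratio of 21.7, and Krt19 sits in the bulk.

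Urothelial genes other than the members were then examined. A gene was called lower or higher when its log2 fold change was below -1 or above 1 and its p in edgeR's quasi-likelihood test, after adjustment over all genes, was under 0.05. Of 45 further genes of superficial, basal and simple epithelial type, 33 passed the filter. In edgeR's test 0 of the 33 were called lower, against 3.11% of all genes tested, and 0 had an unadjusted p under 0.05 with a negative fold change. The DESeq2 Wald test, run without that filter, called 2 of the 45 lower, Ly6d and Shh. Called higher was 1 gene, against 1.8% of all genes. This was Col17a1, the hemidesmosome collagen of basal cells, which rose from 0.688 ± 0.0779 to 2.23 ± 0.0411 CPM (SD, n = 3), which is 1.69 ± 0.362 (standard error) on the log2 scale at an adjusted p of 0.0176 in edgeR's test, and without WT replicate 1 its adjusted p was 0.0566. Over the 33 genes the log2 fold change had a median of 0.25, against 0.02 over all genes. WT replicate 1 was the highest kidney for 14 of the 33, against 8.34% of genes tested.

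Among superficial and intermediate urothelial genes, 14 of 18 were tested. Krt20, the keratin of umbrella cells that injured tubules are also known to make, had 697, 759 and 622 CPM in WT and 1299, 1309 and 972 CPM in Trpm2-/- kidneys. All Trpm2-/- kidneys were above all WT kidneys, and the log2 fold change of 0.79 (adjusted p = 0.0189, edgeR) stayed under the fold threshold. Klf5, a transcription factor of urothelium and collecting duct, had a log2 fold change of 0.71 and Cldn4, a tight junction claudin, one of 0.55, neither at an adjusted p under 0.05. Snx31, a sorting nexin that binds uroplakins, had 5.30, 1.67 and 2.64 CPM in WT and 0.122, 0.683 and 3.30 CPM in Trpm2-/- kidneys, so that the genotypes overlapped through Trpm2-/- replicate 4. Pparg, a nuclear receptor that drives urothelial differentiation, had 2.53 CPM in WT replicate 1 and 0.245 to 0.920 CPM in the other 5 kidneys. Krt13 was at 0 in every library. Snx31 and Pparg were picked after their values were seen.

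Among genes of basal and layered epithelium, 14 of 22 were tested, and their median log2 fold change was 0.38. Itgb4, the integrin of hemidesmosomes, had a log2 fold change of 0.86 (adjusted p = 0.0322, edgeR) and Cd44, the hyaluronan receptor, one of 0.95 (adjusted p = 0.0332, edgeR). Both stayed under the fold threshold with all mice and were called higher without WT replicate 1, at 1.07 and 1.25, as was Klf5 at 1.04. All 3 Trpm2-/- kidneys were above all 3 WT kidneys for 6 of the 14 genes, against 16.7% of genes tested. Trp63, the transcription factor that defines basal cells, had 1.42, 0.450 and 0.245 CPM in WT and 1.41, 0.751 and 1.18 CPM in Trpm2-/- kidneys. Dsg3 was at 0 in every library. Of the 6 simple keratins, 0 were called in either direction, and Krt8, Krt18 and Krt7 had log2 fold changes of 0.20, 0.43 and 0.03. Krt80 had 16.1 CPM in WT replicate 1 and 5.80 to 7.77 CPM in the other 5 kidneys.

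In tetraspanins, the family of Upk1a and Upk1b, 0 of 12 genes were called and the median log2 fold change was -0.09. Cd9 had 0.80 (adjusted p = 0.0160 in the edgeR test), Cd82 0.69 and Cd63 -0.56. Among mucus and secreted mucosal genes, to which Fcgbp belongs by function, 1 of 6 tested genes was called lower. This was Pigr, the receptor that carries immunoglobulins across epithelia, which fell from 145 ± 40.6 to 52.1 ± 8.32 CPM (SD, n = 3) at a log2 fold change of -1.47 (adjusted p = 0.00353, edgeR). Wfdc2, a secreted protease inhibitor of ducts, had a log2 fold change of -0.51 (adjusted p = 0.0736, edgeR). WT replicate 1 was not the highest kidney for either. It was for Muc20 (53.6 CPM against 11.6 to 20.1 CPM elsewhere) and for Muc4 (18.5 CPM against 1.04 to 5.88 CPM), both of them membrane mucins that were not called. The log2 fold change of Muc4 turned from -0.62 to 1.98 without WT replicate 1, and it was then called higher (adjusted p = 0.0256, edgeR). Muc4 was picked after its values were seen.

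Markers of other tissue that a kidney sample can hold were compared between libraries, because WT replicate 1 carried so much of the members' signal. Genes of the collecting duct and papilla, the medullary tip that projects into the pelvis, summed to 2412 CPM in WT replicate 1, to 1836 and 1704 CPM in the other WT kidneys and to 935 to 1283 CPM in Trpm2-/- kidneys. Aqp2 was the largest part of each sum, with 1273, 1128 and 970 CPM in WT and 484, 626 and 554 CPM in Trpm2-/- kidneys. All 3 WT kidneys were above all 3 Trpm2-/- kidneys for 2 of the 11 tested genes, against 16.8% of genes tested. WT replicate 1 was the highest kidney for 7 of the 11 tested. Akr1b3, the aldose reductase that makes the osmolyte sorbitol in the medulla, had 241 CPM there and 39.5 to 49.8 CPM in the other 5 kidneys. Aqp4 had 76.2 CPM against 7.20 to 20.1 CPM, and Slc14a2, the urea transporter of the inner medulla, 157 CPM against 3.37 to 64.5 CPM. Hsd11b2, Scnn1b, Scnn1g and Aqp3, markers of the collecting duct, were not highest in WT replicate 1. Aqp3 had a log2 fold change of -0.47. Aqp2, the vasopressin-regulated water channel, was called lower (log2 fold change -1.02, adjusted p = 0.00602, edgeR), and it was the only gene of this list that was. Without WT replicate 1 its log2 fold change was -0.93, under the fold threshold, so that no gene of the list was called. Aqp4, Slc14a2 and the genes that were not highest were picked after their values were seen.

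Fat genes summed to 113 CPM in WT replicate 1, to 53.7 to 67.0 CPM in the other WT kidneys and to 32.3 to 38.7 CPM in Trpm2-/- kidneys, and WT replicate 1 was highest for 7 of 8. The adipocyte hormones and secreted factors Adipoq and Cfd were all but limited to it, with 64 and 293 counts against 0 to 2 and 0 to 3 in the other kidneys. Outside WT replicate 1 the sum was nearly all Fabp4, Car3 and Cidec. Of these, the genotypes did not overlap for Fabp4 and Car3 but did for Cidec. Fabp4, which adipocytes share with endothelium, fell by 1.53 on the log2 scale (adjusted p = 0.00165, edgeR) and by 1.38 without WT replicate 1. Car3, a carbonic anhydrase of fat and muscle, and Cidec, a lipid droplet protein, had log2 fold changes of -1.58 and 0.01 and were not called. Smooth muscle genes, which the pelvic wall holds too, summed to 123 to 140 CPM in WT and 168 to 186 CPM in Trpm2-/- kidneys, with WT replicate 1 inside the WT range. Most of each sum came from Smtn, with 102 to 111 CPM in WT and 90.7 to 137 CPM in Trpm2-/- kidneys. The genotypes overlapped for Smtn. It was lowest, at 90.7 CPM, in Trpm2-/- replicate 1, whose sum of 168 CPM was still above that of every WT kidney. The order of the sums thus did not come from Smtn alone. WT replicate 1 was the highest kidney for 2 of the 10 smooth muscle genes. One of them was Actg2, with 16 counts there and 0 to 3 elsewhere. Smtn and Actg2 were picked after their values were seen. Acta2 was the only one of 7 tested genes called higher (log2 fold change 1.46, adjusted p = 0.0467, edgeR), with an adjusted p of 0.122 without WT replicate 1. Myh11 and Lmod1 had log2 fold changes of 1.05 and 0.72 and were not called. The 4 mesothelial markers that are not members summed to 12.3, 5.53 and 9.51 CPM in WT and 9.98, 6.76 and 33.8 CPM in Trpm2-/- kidneys. Of these, Lrrn4 and Muc16 had at most 3 counts in any library. Msln was highest in WT replicate 1 at 6.60 CPM, and the Wt1 gene, which podocytes also express, was highest in Trpm2-/- replicate 4 at 32.0 CPM. The part of these tissues in the members' values was not tested.

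Other lists gave little signal. Lymphoid markers summed to 1.73 to 2.96 CPM and adrenal markers to 3.43 to 5.40 CPM. The 1 tested gene of each, Cd79a and Star, had log2 fold changes of 0.41 and -0.05, and markers of male accessory glands had at most 3 counts in any library. The labelled tissue was borne out by its markers, with 2566 to 3594 CPM summed over 9 proximal tubule genes in WT and 668 to 1130 CPM in Trpm2-/- kidneys. Of these 9, 8 were called lower, of which Slc5a12 and Slc22a8 were not called without WT replicate 1, and WT replicate 1 was highest for 0 of them. Slc34a1, the sodium-phosphate cotransporter, fell by 2.73 on the log2 scale (adjusted p = 0.00391, edgeR). Slc5a2, the glucose cotransporter, and Cubn, the endocytic receptor cubilin, fell by 1.24 and 1.39. Among 8 tubular injury genes Sox9 was called higher (log2 fold change 1.16, adjusted p = 0.0115, edgeR). The list's sum was lowest in WT replicate 1, but it was mostly Spp1, with 11457 of 16891 CPM there. Among the WT kidneys, only Spp1 of this list was lowest in WT replicate 1. Havcr1, Vcam1 and Cd44 were highest there among WT, and the other genes were in between. These genes were picked after their values were seen. Without WT replicate 1 the log2 fold change was -2.90 for Slc34a1 and 1.10 for Sox9, and both were still called.

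**Figure D5:**
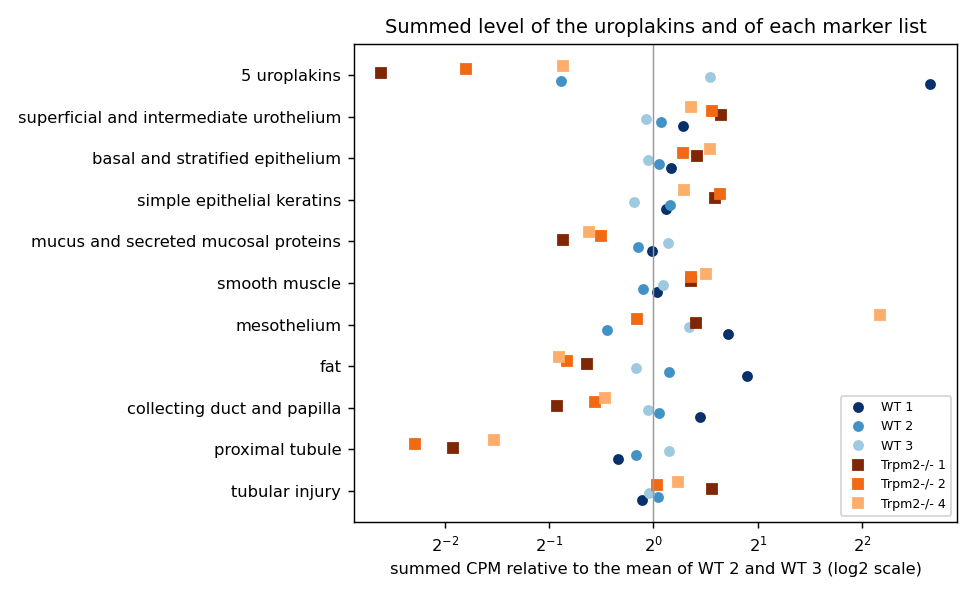
Summed CPM of the 5 uroplakins and of 10 marker lists without the members (rows on the y axis), in each kidney, divided by the mean of WT replicates 2 and 3 (x axis, log2 scale), with WT as circles and Trpm2-/- as squares. WT replicate 1 stands to the right of all other kidneys for the uroplakins, for fat and for collecting duct and papilla, and Trpm2-/- replicate 4 does for mesothelium.

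The genes whose pattern was most like that of the uroplakins were ranked by Pearson's r between log2 CPM and the mean log2 CPM of the 5 uroplakins over the 6 libraries, among genes with a mean of at least 1 CPM. The first 10 had r between 0.97 and 0.99, a description only, since the points share 2 genotypes and 1 kidney that stands apart. Sptssb, a small subunit of the enzyme that starts sphingolipid synthesis, was closest in size as well, with 102, 4 and 10 counts in WT and 0, 0 and 1 in Trpm2-/- libraries. The other 9 (Rab11fip4, Rab25, Fut11, Mras, Rufy1, Ppp2r2b, Lmo1, Prom2 and Gltp) were highest in WT replicate 1 and next highest in WT replicate 3, as the uroplakins were, but varied far less. Rab25, an epithelial GTPase of recycling endosomes, had 23.9, 16.4 and 18.8 CPM in WT and 12.7, 13.7 and 15.6 CPM in Trpm2-/- kidneys. Prom2, a prominin of epithelial membrane protrusions, had 15.9, 7.13 and 12.0 CPM in WT and 5.75, 7.03 and 7.78 CPM in Trpm2-/- kidneys. Without the 2 libraries farthest from the median, WT replicates 1 and 3, r was 0.50 for Ppp2r2b and 0.99 for Rab11fip4, with the others in between.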

How the data were processed

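Kidney RNA of 3 WT and 3 Trpm2-/- mice was isolated with Trizol, prepared with NEBNext Ultra II reagents and sequenced on an Illumina HiSeq instrument. The submitters' processing notes name HISAT2 and StringTie without versions, and name mm9 as the build. Of 54409 genes of the tables that GENCODE release M21 holds, 53499 have its GRCm38 start and end, all 10 members among them, so positions are given as GRCm38. Strandedness is not given in the sources used here. The authors deposited raw counts of reads per gene and FPKM values, each table with 1 column per mouse.

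The count test was that of edgeR 4.0.16 (R 4.3.3), with filterByExpr, TMM normalisation, a two-sided quasi-likelihood test and Benjamini-Hochberg adjustment over the 15816 genes tested. A call needed an adjusted p under 0.05 and a change of more than 1 on the log2 scale. The fold threshold is that of the methods. A standard error is the size of the log2 fold change over the square root of its F statistic. The 95% intervals of pooled ratios are exact binomial ones and cover counting error only. Alternatives were DESeq2 1.42.0, limma 3.58.1 on log2(FPKM + 1) and log2(FPKM + 0.1), other filters, normalisation and call rules, a replicate block, and fits that left out 1 mouse at a time. The edgeR fit, with and without the replicate block, and the DESeq2 and limma fits were tested on simulated counts. The searches of promoters and transcript windows were not.

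Replicates differed beyond sampling noise, with 13.5 to 36.7 chi-square units per degree of freedom, so none was counted as a copy of another. The labels and files give no batch and do not say that replicate numbers pair mice. Besides the members, the genes named are the 3 with the smallest p in each list, the 10 most like the uroplakins, the 10 highest in WT replicate 1 relative to the next kidney, and others picked after their values were seen. The members and the lists were chosen with earlier results of these data known.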

Additional observations from a re-analysis of the deposited data

How the results depend on the processing

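The log2 fold change stayed below 0 for 8 members and above 0 for Krt19 under every alternative that gave a value. For Krt5 it turned to -0.01 without WT replicate 2 and to -0.049 without WT replicate 3 and reached 0.63 without WT replicate 1, a range of -0.049 to 0.63. The median over the 7 tested members was -2.03. It was -0.89 with limma on log2(FPKM + 1), a pseudocount that is large beside these levels, and -2.40 to -0.93 when each mouse was left out. Of the further urothelial genes 0 were called lower, and 3 without a filter (Ly6d, Shh and Snx31), 2 with DESeq2 and 0 to 2 when each mouse was left out. Called higher was 1 gene, 4 at an adjusted p with no fold threshold, 0 with limma on either FPKM scale, and 0 to 3 with each mouse left out. Over all genes, 492 were lower and 285 higher. These counts were 319 and 62 with limma on log2(FPKM + 1), 181 higher with log2(FPKM + 0.1), 466 higher with no filter, 553 higher at an unadjusted p, and 1152 lower and 750 higher with no fold threshold. They were 314 to 570 lower and 97 to 346 higher with each mouse left out, with the lowest of both without WT replicate 3, and 118 and 161 higher without WT replicate 2 and Trpm2-/- replicate 1. The cause of these shifts was not tested.

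With the replicate number as a block, 180 genes were higher and 450 lower, 0 further urothelial genes were called in either direction, and the members' median was -2.41. The numbers are shared by 2 pairs only, whose deviations from their group means correlated at 0.05 and -0.01 over the genes tested, so the mice share a number and nothing else that is known. Fits without a filter that also leave out a mouse were chosen after seeing the data, for Upk1b, Upk2 and Krt15. Depth limits Upk1b, Upk2, Upk3a and Krt15 in Trpm2-/- kidneys, where they had 5, 1, 6 and 8 counts in all.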

Other observations

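Beyond the members, the genes in which WT replicate 1 stood farthest above the next kidney were of mixed kinds. At a minimum of 5 CPM in that kidney, Cfd was first with 293 counts against 0 to 3, followed by Cldn11, a claudin, with 95 counts against 0 to 4, Cidea, a lipid droplet protein of fat, with 84 against 0 to 5, and Cuzd1 with 117 against 1 to 8. Next came Sptssb, and then Rasal1, a regulator of Ras, with 15.9 CPM against 1.09 to 1.57 CPM, and Rtn1, a reticulon, with 8.20 CPM against 0.386 to 1.16 CPM. Akr1b3 and Gm47283 followed at ratios of 4.85 and 4.70. Aldh1a3, an enzyme that makes retinoic acid, had 7.52 CPM against 0.184 to 1.65 CPM. None of the 5 of these genes that were tested was called between genotypes in edgeR's test.

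Shh, the ligand that urothelium and papillary epithelium send to the underlying stroma, did not pass the filter and was singled out after its values were seen. It had 31, 13 and 9 counts in WT and 2, 1 and 1 counts in Trpm2-/- libraries. All 3 WT libraries were above all 3 Trpm2-/- libraries. DESeq2 and the edgeR fit without a filter both called it lower. Ly6d, a surface protein of layered epithelia related to Psca, had 81, 4 and 22 counts in WT and 9, 2 and 8 counts in Trpm2-/- libraries, so its genotypes overlapped.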
